A study of Homo sapiens with 9 samples.

Results

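The CXCL chemokines and CCL20 were followed as a group of 10 genes among the 78894 Ensembl gene identifiers measured in CAL27 cells. The members were taken by name: CXCL1, CXCL2, CXCL3, CXCL5, CXCL6, CXCL8, CXCL10, CXCL11, CXCL16 and CCL20. No measured value entered the choice by name, but the group was proposed with earlier results of these data in view. CAL27 is an established cell line of human tongue carcinoma, of the squamous kind, and the study behind the series looked at an enhancer in that class of tumour. RNA sequencing was done on untreated Control cells (3 libraries) and on 3 CRISPR-edited groups named A2ko, A8ko and C9ko. All groups were grown alike, in DMEM with serum, and no other treatment was given in the labels. The labels do not name the edited sequence, so no target could be checked, nor do they say if the cells of a group were 1 clone or a pool. Both A2ko files were the same, value for value, and both A8ko files too, so each of these groups counted as 1 library and 7 of the 9 files were distinct (C9ko kept 2).

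Chemokines are small secreted proteins that guide the movement of leukocytes through G protein-coupled receptors. CXCL1, CXCL2, CXCL3, CXCL5, CXCL6 and CXCL8 carry the amino acids Glu-Leu-Arg (ELR) before their first cysteines, bind CXCR2 (CXCL6 and CXCL8 also CXCR1) and attract neutrophils. CXCL10 and CXCL11 bind CXCR3 on activated T cells and are known as interferon-induced genes. CXCL16 is a membrane-bound ligand of CXCR6 that proteases can release, and CCL20 attracts CCR6-bearing lymphocytes and dendritic cells. In squamous epithelium most of these genes are known to be switched on by NF-kB downstream of IL-1, TNF and IL-17.

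Levels are in TPM, a share of all transcripts that is corrected for transcript length, so that genes can be compared with each other. Sequencing depth is unknown, and between 15556 and 16716 identifiers reached 1 TPM in a library. All 10 squamous epithelial markers examined were at 1 TPM or more in every library, but their summed level was lower in the knockouts. It was 16690 to 17790 TPM in Control, 6755 in A2ko, 7897 in A8ko and 10310 to 10470 in C9ko. KRT5 and KRT14 led that sum, with Control means of 8917 and 3877 TPM, and both were lower in every knockout. Other markers went other ways. In C9ko 5 of the 10 were called lower, 1 (CDH1) higher and 4 did not pass (limma, adjusted p under 0.05). Over all 17100 tested genes, 7.42% were called lower and 22.0% higher in that comparison. CDH1 stood at 1.33, 1.36 and 1.67 times the Control mean in A2ko, A8ko and C9ko. KRT17 stood at 1.57 times in A2ko. Of 10 leukocyte markers, 2 (CD14 and CD68) reached 1 TPM in every library, 7 were under 1 TPM in every library (TYROBP at 0 throughout), and CSF1R passed 1 TPM in A2ko alone, at 1.33 TPM. The summed leukocyte markers lay at 42.6 to 50.7 TPM in Control, 61.2 in A2ko, 83.6 in A8ko and 65.9 to 67.3 in C9ko, nearly all of it CD14 and CD68. These went opposite ways in C9ko, CD14 to 3.28 times and CD68 to 0.477 times the Control mean, both called by limma, and in A8ko CD68 stood at 66.3 TPM against 27.8 to 32.2 in Control. Of 6 endothelial markers only CDH5 reached 1 TPM in every library (KDR was at 0), and their sum was 3.63 to 4.66 TPM in Control, 13.2 in A2ko, 8.67 in A8ko and 22.3 to 30.3 in C9ko. Of 8 fibroblast markers 2 did (COL3A1 was at 0), with sums of 10.8 to 12.3 TPM in Control, 17.8 in A2ko, 7.36 in A8ko and 11.2 to 12.2 in C9ko, and LUM was called lower in C9ko at 0.265 times the Control mean. The part of these marker shifts in the chemokine values was not tested. Mitochondrially encoded transcripts took 23.1, 26.9 and 23.5% of TPM in Control, 25.2% in A2ko, 20.6% in A8ko, and 20.2 and 17.9% in the C9ko pair.

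Of the members, 8 sit on chromosome 4 in a pair of clusters, with CXCL8, CXCL6, CXCL1, CXCL5, CXCL3 and CXCL2 in that order along 358.8 kb and CXCL10 beside CXCL11 about 2280.6 kb beyond the start of CXCL8. CCL20 is on chromosome 2 and CXCL16 on chromosome 17. The proximal promoters are shown because they share a short motif. Each run is the 150 bases before the RefSeq transcript start (GRCh38.p14), read 5′ to 3′ on the gene's own strand. Capitals mark the NF-kB motif GGNNNTTCC on either strand, and also the AP-1 motif and the TATA box spelled out further on.
CXCL8, chr4:73740419-73740568, plus strand: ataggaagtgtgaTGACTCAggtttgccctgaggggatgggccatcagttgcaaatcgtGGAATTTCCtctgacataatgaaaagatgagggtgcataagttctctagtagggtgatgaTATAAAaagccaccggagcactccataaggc
CXCL1, chr4:73869243-73869392, plus strand: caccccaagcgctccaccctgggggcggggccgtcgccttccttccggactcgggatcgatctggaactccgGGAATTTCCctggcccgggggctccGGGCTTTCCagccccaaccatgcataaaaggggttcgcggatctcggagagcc
CXCL2, chr4:74099196-74099345, minus strand: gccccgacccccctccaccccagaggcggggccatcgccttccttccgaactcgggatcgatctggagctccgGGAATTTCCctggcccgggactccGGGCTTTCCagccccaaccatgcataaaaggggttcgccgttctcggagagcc
CXCL3, chr4:74038690-74038839, minus strand: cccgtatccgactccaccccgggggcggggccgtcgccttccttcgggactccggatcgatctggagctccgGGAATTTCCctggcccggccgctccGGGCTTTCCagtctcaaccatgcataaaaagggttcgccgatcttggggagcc
CXCL6, chr4:73836528-73836677, plus strand: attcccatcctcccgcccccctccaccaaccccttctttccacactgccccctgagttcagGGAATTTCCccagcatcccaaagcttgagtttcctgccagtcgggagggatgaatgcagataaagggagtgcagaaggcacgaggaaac
CXCL10, chr4:76023498-76023647, minus strand: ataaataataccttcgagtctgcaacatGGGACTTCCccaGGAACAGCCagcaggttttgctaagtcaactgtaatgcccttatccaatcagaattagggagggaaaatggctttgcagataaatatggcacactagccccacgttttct
CXCL11, chr4:76036071-76036220, minus strand: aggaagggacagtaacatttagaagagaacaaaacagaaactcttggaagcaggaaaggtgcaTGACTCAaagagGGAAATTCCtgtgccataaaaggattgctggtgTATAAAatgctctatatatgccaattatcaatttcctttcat
CCL20, chr2:227813692-227813841, plus strand: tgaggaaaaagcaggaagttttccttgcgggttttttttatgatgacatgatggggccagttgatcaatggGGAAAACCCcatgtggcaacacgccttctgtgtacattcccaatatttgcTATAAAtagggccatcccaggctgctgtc
In CXCL1, CXCL2 and CXCL3 the capitals fall in the same pair of words, GGAATTTCC and GGGCTTTCC. CXCL8 and CXCL6 hold GGAATTTCC once, CXCL10 holds GGGACTTCC and, on the opposite strand, the match GGAACAGCC, CXCL11 holds GGAAATTCC, and CCL20 holds an opposite-strand match, GGAAAACCC.

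Over the 250 bases before the start, GGNNNTTCC was found on either strand in 9 of the 9 members with a RefSeq promoter entry, against 17.1% of 35116 promoters in the same table. CXCL5 and CXCL6, which were not expressed here, hold it too. The interferon response motif GAAANNGAA was found in 3 of 9 members (CXCL2, CXCL3 and CXCL10) and in 6.88% of all promoters. The AP-1 motif TGANTCA was found in 2 members (CXCL8 and CXCL11) against 6.57%. The TATA box TATAAA was found in 3 members (CXCL8, CXCL11 and CCL20) against 10.7%. The NF-kB matches nearest the start lay between bases -110 and -45 in all 9, while the AP-1 match of CXCL8 lay at -137 to -131 and that of CXCL11 at -87 to -81. GGAATTTCC and GGAAATTCC read as a match on both strands and were counted once. A match is a description of letters and was not measured as a bound site.

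**Figure D1:**
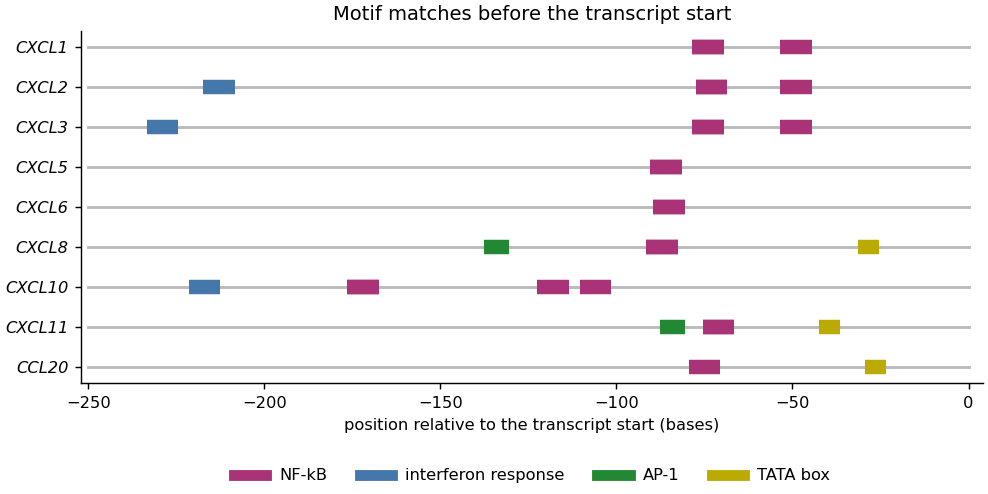
Motif matches in the 250 bases before the transcript start of the 9 members with a RefSeq promoter entry; the x axis is the position relative to the start in bases, and each bar is 1 match on either strand. The NF-kB motif appears in all 9 members, 1 to 3 times, and within 110 bases of the start in each.

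In C9ko, 6 of the 8 chemokines that passed the filter on low values were called higher than Control and 0 lower (limma, adjusted p under 0.05), namely CXCL1, CXCL8, CXCL10, CXCL11, CXCL16 and CCL20. Over all 17100 tested genes, 22.0% were called higher and 7.42% lower in this comparison, so that calls were common. For 5 of the 6, both C9ko libraries also lay outside the Control range and 1 log2 unit or more from the mean of Control, which held for 3.33% of all genes in the upward direction. In A8ko, 6 members (CXCL1, CXCL2, CXCL8, CXCL10, CXCL11 and CCL20) lay above the Control range by at least 1 log2 unit and 0 below it, against 2.05% of all genes above and 2.68% below; with median-of-ratios scaling there were 5, CXCL2 falling short of the margin. In A2ko, 0 members lay above by that margin and 1, CXCL11, lay below, against 3.54% and 1.53% of all genes; with that scaling CCL20 also lay below. A2ko and A8ko are 1 distinct library each, so their differences have no replicate check and no test. The 3 comparisons share the Control libraries.

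The filter required 1 TPM in 2 distinct libraries, and CXCL5 and CXCL6 did not pass it. Over the 8 that did, the median log2 difference was 0.00 for A2ko, and 1.29 for both A8ko and C9ko, beside medians over all tested genes of 0.12, 0.09 and 0.11. All such differences are of log2(TPM + 1) values, a scale on which changes of low genes come out too small. With median-of-ratios scaling the medians over all genes became -0.03, 0.02 and 0.00, the share of higher genes among C9ko calls went from 74.8% to 56.1%, and the same 6 members were called. With the mitochondrial genes left out of the total, the same 6 members were called in C9ko and the same 6 counted in A8ko. In bulk RNA, fewer cells that express a gene and less RNA per cell cannot be told apart.

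**Figure D2:**
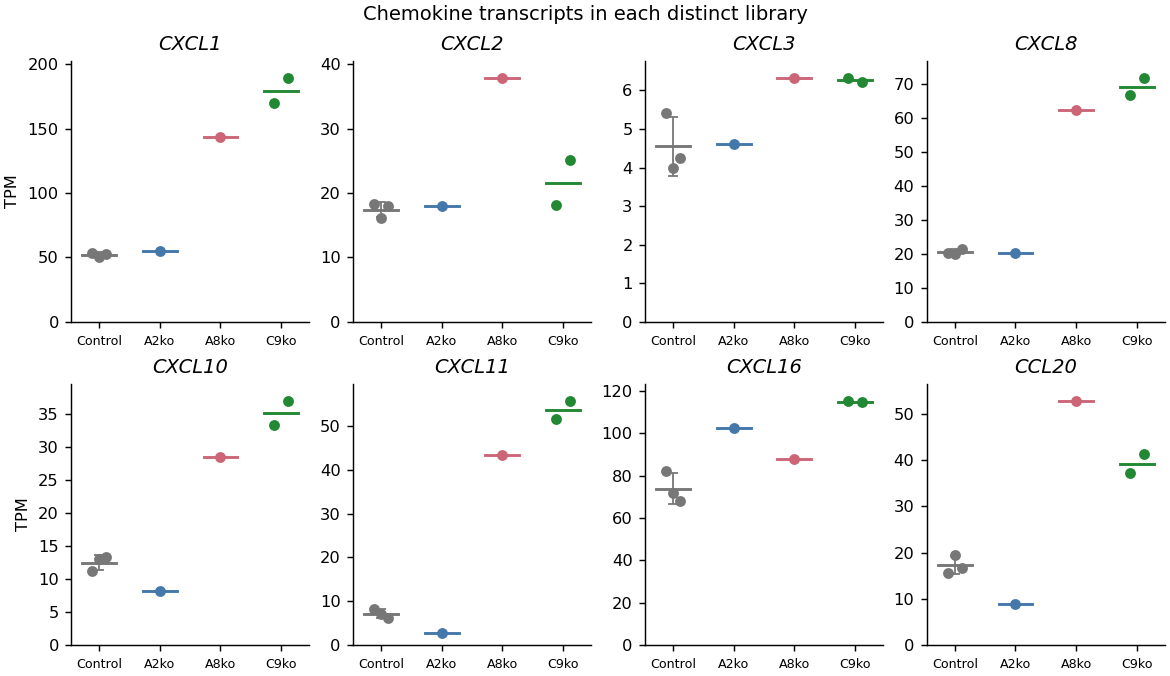
TPM (y axis, linear from 0) of the 8 chemokines that passed the filter, by group; points are distinct libraries, horizontal lines are group means and the error bar of Control is the SD (n = 3). A8ko and C9ko lie above Control for 7 of the 8 genes in every library; for CXCL2 the C9ko libraries, 18.1 and 25.2 TPM, straddle the highest Control library, 18.3 TPM, while A2ko lies near or below Control for all but CXCL16.

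CXCL8 (interleukin-8, ENSG00000169429, chr4:73740506-73743716 in GENCODE 29 on GRCh38) is the founding neutrophil attractant of the ELR group. It stood at 20.4, 19.9 and 21.4 TPM in Control, 20.3 in A2ko, 62.3 in A8ko, and 66.7 and 71.8 in the C9ko pair. The A2ko library lay inside the Control range, while A8ko and both C9ko libraries stood far above it. The Control mean was 20.6 ± 0.760 TPM (SD, n = 3), and the mean of C9ko was 3.37 times as high. The C9ko difference was 1.70 log2 units (SE 0.07, limma adjusted p = 1.93e-05), and the A8ko difference was 1.55.

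CXCL1 (ENSG00000163739, chr4:73869393-73871242), known as GRO-alpha, was the most abundant ELR chemokine. Its values were 53.5, 49.96 and 52.5 TPM in Control, 54.8 in A2ko, 143 in A8ko, and 169.6 and 189 in the C9ko pair. A8ko and both C9ko libraries stood far above Control, as for CXCL8, while A2ko lay just above the highest Control library, at 1.05 times the Control mean of 52.0 ± 1.85 TPM (SD, n = 3). C9ko stood 1.77 log2 units above Control (SE 0.07, limma adjusted p = 1.96e-05), or 3.45 times in mean TPM, and A8ko 1.45 log2 units above.

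CXCL2 (ENSG00000081041, chr4:74097035-74099293), the close paralog GRO-beta, followed a different order. It stood at 18.3, 16.1 and 17.9 TPM in Control, 17.99 in A2ko, 37.8 in A8ko, and 18.1 and 25.2 in the C9ko pair. A8ko was highest, at 2.17 times the Control mean, and 1 C9ko library lay within the Control range. The C9ko difference of 0.28 log2 units (SE 0.14) did not pass (limma adjusted p = 0.171). This call rests on 1 C9ko library: without C9ko 1, the lower, the difference was 0.51 and the adjusted p 0.0221.

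CXCL3 (ENSG00000163734, chr4:74036589-74038807), GRO-gamma, was low throughout, with 5.43, 3.98 and 4.25 TPM in Control, 4.61 in A2ko, 6.32 in A8ko, and 6.32 and 6.22 in the C9ko pair. Its knockout libraries other than A2ko lay above all 3 Control libraries, by a small margin. The C9ko difference was 0.40 log2 units (SE 0.13) and did not pass (limma adjusted p = 0.0588). Without the highest Control library, Control 1, it was 0.51 with an adjusted p of 0.0203.

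CXCL5 and CXCL6, ELR ligands that lie with CXCL1 between CXCL8 and CXCL3, were not expressed at a measurable level. CXCL6 was listed at 0 in every library. CXCL5 was listed at 0.0359 TPM in Control 1, 0.0422 in C9ko 2 and 0 elsewhere. They share 81.2% of aligned transcript bases with each other and 85.9% of the 250 bases before the start.

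CXCL1, CXCL2 and CXCL3 are 81.7 to 90.5% identical over their aligned transcripts, CXCL1 and CXCL2 the most alike, so that counting may have split some reads among them. Their sum avoids that and was 77.3, 70.0 and 74.7 TPM in Control, 77.4 in A2ko, 187.5 in A8ko, and 194 and 220.4 in the C9ko pair. The sum was 1.05, 2.53 and 2.80 times the Control mean in A2ko, A8ko and C9ko. CXCL1 made up 70.3 ± 1.04% of that sum in Control (SD, n = 3), compared with 70.8% in A2ko, 76.5% in A8ko, and 87.4 and 85.8% in the C9ko pair. The bases before their starts were 83.3 to 86.4% identical. As counted, the 3 genes differed in how far they moved, and the part of split reads in that was not tested. All 6 ELR ligands summed to 94.6 ± 4.12 TPM in Control, 97.7 in A2ko, 249.8 in A8ko, and 260.8 and 292 in the C9ko pair.

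CXCL11 (ENSG00000169248, chr4:76033682-76041415), a CXCR3 ligand, had the widest range of the group. It stood at 8.21, 6.99 and 6.27 TPM in Control, 2.78 in A2ko, 43.4 in A8ko, and 51.6 and 55.7 in the C9ko pair. A2ko lay below every Control library and the other knockouts far above. C9ko was 7.50 times the Control mean of 7.16 ± 0.981 TPM (SD, n = 3), a difference of 2.75 log2 units (SE 0.11, limma adjusted p = 1.93e-05). A8ko was 6.06 times the Control mean, and A2ko 0.389 times, a fall of 1.10 log2 units on a single library.

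CXCL10 (ENSG00000169245, chr4:76021117-76023497), its neighbour and fellow CXCR3 ligand, showed the same split at a smaller size. The values were 11.2, 13.0 and 13.3 TPM in Control, 8.17 in A2ko, 28.6 in A8ko, and 33.4 and 37.0 in the C9ko pair. A2ko was again the lowest library. C9ko exceeded Control by 1.42 log2 units (SE 0.10, limma adjusted p = 0.000121) and A8ko by 1.13, while A2ko lay 0.653 times as high as the Control mean. CXCL9, the remaining CXCR3 ligand, stayed under 1 TPM in every library, with a highest value of 0.302 TPM in C9ko 2. CXCL10 and CXCL11 lie within ART3 on the opposite strand, which did not exceed 0.140 TPM.

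CCL20 (ENSG00000115009, chr2:227805739-227817564), the CCR6 ligand, stood at 15.7, 19.4 and 16.6 TPM in Control, 8.95 in A2ko, 52.8 in A8ko, and 37.2 and 41.4 in the C9ko pair. It was lowest in A2ko and, unlike CXCL1, CXCL8, CXCL10 and CXCL11, highest in A8ko. C9ko was 2.28 times the Control mean of 17.2 ± 1.94 TPM (SD, n = 3), with a log2 difference of 1.15 (SE 0.10, limma adjusted p = 0.000382). A8ko was 3.06 and A2ko 0.519 times the Control mean.

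CXCL16 (ENSG00000161921, chr17:4733526-4739922) was the most abundant member in Control and moved least among the called genes. It stood at 82.1, 71.8 and 67.9 TPM in Control, 103 in A2ko, 88.0 in A8ko, and 115 and 115 in the C9ko pair. Every knockout library lay above every Control library, A2ko included. The C9ko difference was 0.63 log2 units (SE 0.09, limma adjusted p = 0.00236), and those of A2ko and A8ko were 0.47 and 0.25. MED11 overlaps CXCL16 on the opposite strand at up to 32.9 TPM, and the sources used here do not give whether counting used strand.

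**Figure D3:**
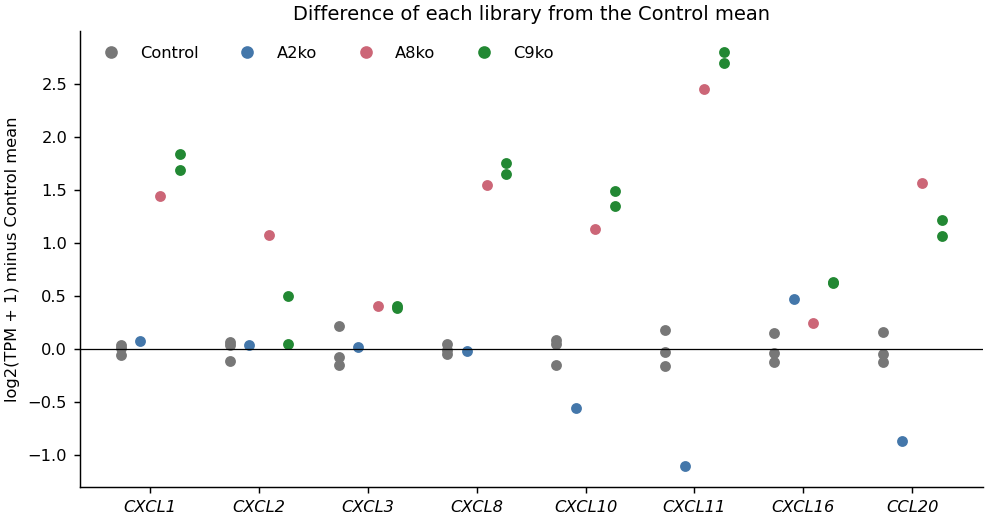
Difference of each distinct library from the Control mean (y axis, log2(TPM + 1)) for the 8 chemokines; points are libraries and the line marks no difference. CXCL10, CXCL11 and CCL20 split, with A2ko below the Control libraries and A8ko and C9ko above, while A2ko sits on the line for CXCL1, CXCL2, CXCL3 and CXCL8.

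The ranking of levels changed with these shifts. In Control, CXCL16 (mean 73.9 TPM) and CXCL1 (52.0) led, followed by CXCL8 (20.6), CXCL2 (17.4), CCL20 (17.2), CXCL10 (12.5), CXCL11 (7.16) and CXCL3 (4.55). CXCL2 and CCL20 did not differ beyond their spread. In C9ko, CXCL1 (179 TPM) led, followed by CXCL16 (115), CXCL8 (69.3), CXCL11 (53.7), CCL20 (39.3), CXCL10 (35.2), CXCL2 (21.6) and CXCL3 (6.27). CCL20 at its lower C9ko value, 37.2 TPM, and CXCL10 at its higher, 37.0, nearly met. CXCL11 thus passed CXCL10, CXCL2 and CCL20 in C9ko, and in A2ko, at 2.78 TPM, it was the lowest of the 8. All 10 members together took 205.4 ± 8.22 TPM in Control (SD, n = 3), compared with 220.2 in A2ko, 462.5 in A8ko, and 498 and 541 in the C9ko pair.

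When each knockout group counted as 1 value and the 3 values were compared with the 3 Control libraries, 0 members were called by limma, against 1.03% of all genes, and 3 (CXCL1, CXCL8 and CXCL16) had an unadjusted p under 0.05, as did 16.0% of all genes. The spread between knockouts counts as error in that test. CXCL1 differed by 1.10 log2 units (adjusted p = 0.256), CXCL8 by 1.08 (0.285) and CXCL16 by 0.45 (0.170, limma). With A2ko left out, 5 members were called higher (CXCL1, CXCL8, CXCL10, CXCL11 and CCL20) against 8.08% of all genes, and with A8ko or C9ko left out 0 were. All 4 knockout libraries lay above all 3 Control libraries for 2 members, CXCL1 and CXCL16, and for 17.0% of all tested genes. The margin was narrow for both, 54.8 TPM in A2ko against 53.5 in the highest Control library for CXCL1, and 88.0 TPM in A8ko against 82.1 for CXCL16. No member had all knockout libraries below Control.

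Among the 17100 tested genes, CXCL1 and CXCL8 were each other's nearest in pattern, by the root mean square difference of their log2 deviations from the Control mean over the 7 libraries (0.07). Next came CSF1 for CXCL1 (0.12), the gene of macrophage colony-stimulating factor, and the homeobox gene NKX1-2 for CXCL8 (0.07). The nearest gene to CXCL10 was ZC3H12A (0.12), which encodes an endoribonuclease that cleaves inflammatory mRNAs, followed by LRRN4 (0.14). For CXCL11, DUSP4, a MAP kinase phosphatase, was nearest at 0.35, and INHBA followed at 0.36. CCL20 lay nearest FOSL1, a subunit of AP-1 (0.16), and NT5E (0.16), and CXCL2 nearest CD83 and MFNG (both 0.12). CXCL3 lay nearest WDR75 (0.03) and PIMREG (0.04), and CXCL16 nearest SEC14L1 (0.05) and SCCPDH (0.06). The closest pairs within the group, after CXCL1 with CXCL8, were CXCL3 with CXCL16 (0.22) and CXCL10 with CCL20 (0.26). The adjacent genes CXCL10 and CXCL11 lay 0.90 apart, though both were lower in A2ko and higher in A8ko and C9ko. The distance grows with the size of the differences, so genes that moved little come out close and CXCL11, with the widest range, far. These distances describe 7 libraries that share groups and carry no test.

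The genes around the clusters did not all move with them. Within 500 kb of the ends of the CXCL8 to CXCL2 cluster, 5 of 28 annotated neighbours passed the filter, of which 2 were called higher in C9ko (AREG and EREG) and 1 lower (RASSF6). Over all tested genes the shares were 22.0% higher and 7.42% lower. AREG and EREG encode ligands of the epidermal growth factor receptor. AREG stood at 16.4, 16.7 and 18.5 TPM in Control, 24.2 in A2ko, 24.0 in A8ko, and 50.4 and 51.6 in the C9ko pair. EREG stood at 12.2, 10.6 and 11.3 TPM in Control, 23.9 in A2ko, 23.6 in A8ko, and 32.2 and 35.7 in the C9ko pair. Both were above Control in A2ko as well, where CXCL1 and CXCL8 were near it. In C9ko AREG was higher by 1.52 log2 units (SE 0.08, limma adjusted p = 3.77e-05) and EREG by 1.501 (SE 0.09, adjusted p = 6.89e-05). RASSF6, on the other side of CXCL8, lay lower by 0.69 log2 units in C9ko (limma adjusted p = 0.0124), a call lost in 2 of 14 alternative settings, without C9ko 1 and with no filter on low values (highest adjusted p 0.0700).

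For the neighbour counts below, the C9ko shares over all tested genes were 22.0% higher and 7.42% lower. Around CXCL10 and CXCL11, 10 of 28 neighbours were tested and 6 were called higher in C9ko, with no difference over 1 log2 unit in any knockout. The largest were STBD1 (0.78), NAAA (0.68), SHROOM3 (0.57) and SCARB2 (0.44 log2 units). Around CCL20, 2 of 27 neighbours were tested and both were called higher in C9ko, AGFG1 by 0.42 log2 units and MFF by 0.23, the latter lost in 9 of 15 alternative settings. Around CXCL16, 33 of 63 were tested, with 2 called higher and 6 lower. The lower ones included SLC52A1, a riboflavin transporter (-1.21 in C9ko, -1.32 in A8ko and 0.71 in A2ko), GGT6 (-0.92), ALOX15 (-0.65, lost in 6 of 14 settings) and ARRB2 (-0.64). The median C9ko difference of tested neighbours was 0.21 log2 units around CXCL8, 0.42 around CXCL10, 0.32 around CCL20 and -0.11 around CXCL16.

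**Figure D4:**
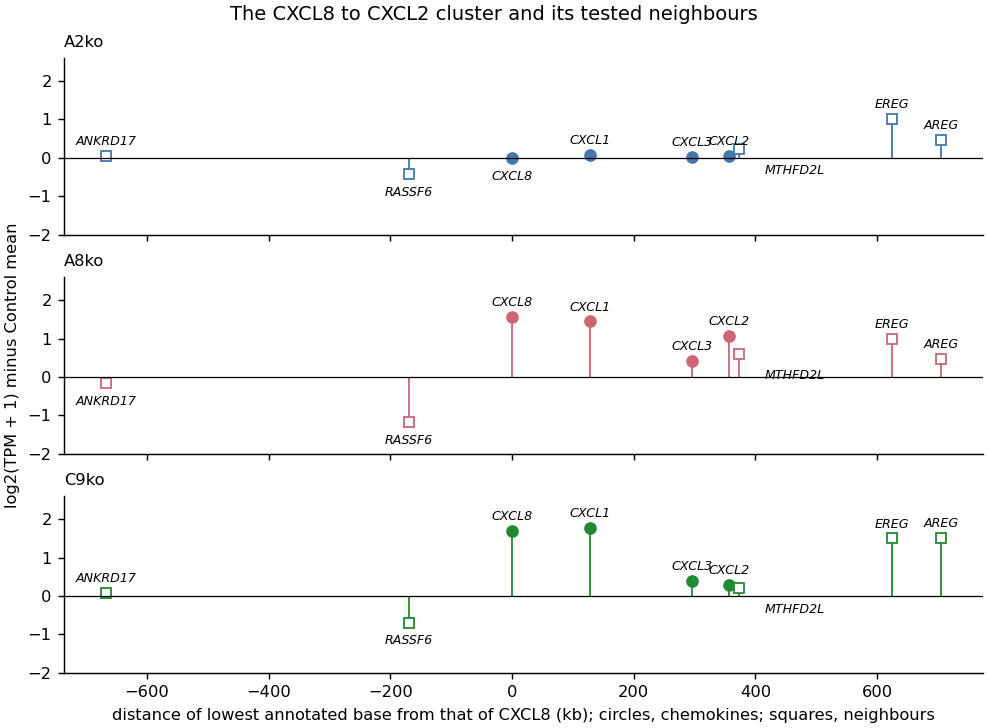
Differences from Control (y axis, log2(TPM + 1), group means) against the distance of each gene's lowest annotated base from that of CXCL8 (x axis, kb), by knockout; filled circles are chemokines and open squares tested neighbours. CXCL8 and CXCL1 stand high in A8ko and C9ko and at 0 in A2ko, whereas EREG and AREG are above 0 in all 3 knockouts and RASSF6 below 0.

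The upstream genes known to drive these chemokines were taken as lists. Of 18 tested genes of the NF-kB subunits and their kinases, 8 rose in C9ko and 0 fell (limma, adjusted p under 0.05), and 10 did not pass. The shares over all tested genes were 22.0% higher and 7.42% lower. Those that rose were NFKB2, RELA, RELB, IKBKE, MAP3K14, TAB3, TRAF2 and TRAF3. The median of the list was 0.18, 0.17 and 0.36 log2 units in A2ko, A8ko and C9ko. MAP3K14, the kinase of the non-canonical pathway, rose by 1.09 log2 units and RELB, the subunit that pathway releases, by 0.95. RELB stood at 18.2, 17.6 and 17.2 TPM in Control, 25.6 in A2ko, 34.3 in A8ko, and 33.9 and 36.2 in the C9ko pair, above Control in every knockout library. IKBKE rose by 0.89 and TRAF2 by 0.72 log2 units in C9ko.

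The feedback and target genes of NF-kB were taken next. Of 15 tested, 12 rose in C9ko and 0 fell, and 4 lay above Control by at least 1 log2 unit in A8ko (ICAM1, SOD2, TNFAIP3 and NFKBIZ) and 1 in A2ko (ICAM1). All tested genes gave 22.0% higher and 7.42% lower in C9ko, and 2.05% above in A8ko and 3.54% in A2ko. The list medians were -0.05, 0.65 and 0.62 log2 units in A2ko, A8ko and C9ko. TNFAIP3, the ubiquitin-editing inhibitor A20, stood at 36.1, 33.2 and 34.5 TPM in Control, 32.6 in A2ko, 124 in A8ko, and 114 and 115 in the C9ko pair. NFKBIZ, a nuclear cofactor of NF-kB, stood at 25.8, 26.5 and 25.9 TPM in Control, 22.5 in A2ko, 53.4 in A8ko, and 51.1 and 55.1 in the C9ko pair. Both lay just below Control in A2ko. In C9ko TNFAIP3 was higher by 1.70 log2 units (SE 0.06, limma adjusted p = 1.64e-05) and NFKBIZ by 0.998 (SE 0.07, adjusted p = 0.000108).

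ICAM1, an adhesion molecule, and SOD2, a mitochondrial superoxide dismutase, were above Control in A2ko too. ICAM1 stood at 23.8, 22.7 and 23.3 TPM in Control, 70.1 in A2ko, 82.9 in A8ko, and 103 and 101 in the C9ko pair. Over all knockouts it differed by 1.81 log2 units (limma adjusted p = 0.00559), a call lost without any 1 Control library (adjusted p up to 0.0789). SOD2 stood at 80.0, 82.4 and 81.2 TPM in Control, 131 in A2ko, 209 in A8ko, and 330.5 and 332 in the C9ko pair. NF-kB target genes therefore did not share 1 order across the knockouts.

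Of 35 cytokine, receptor and adaptor genes of the IL-1, IL-17, TNF and Toll-like receptor routes, 27 were tested. In C9ko 16 rose and 3 fell (TLR3, TLR5 and TLR6). In A8ko 6 lay above by at least 1 log2 unit (IL1A, IL1B, IL17C, TNF, IRAK2 and IL6) and 1 below (TLR5), and in A2ko 1 above (IL17C) and 1 below (IL1A). All tested genes gave 22.0% higher and 7.42% lower in C9ko. They gave 2.05% above and 2.68% below in A8ko, and 3.54% and 1.53% in A2ko. The list medians were 0.21, 0.14 and 0.40 log2 units in A2ko, A8ko and C9ko. IL6, a cytokine with the same inputs as CXCL8, stood at 12.1, 14.1 and 12.9 TPM in Control, 17.6 in A2ko, 130.5 in A8ko, and 109.7 and 121.5 in the C9ko pair. Its rise in C9ko was 3.06 log2 units (SE 0.08, limma adjusted p = 7.05e-06) and stood 3.23 above in A8ko.

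Some cytokines that act on NF-kB from outside the cell differed widely in at least 1 knockout, and these are shown. Others on the list, such as IL17A and IL36B, were listed at 0 in every library. In C9ko, IL1A (0.71 log2 units) and IL1B (0.87) moved less than IRAK2 (1.74), a gene inside the route. TNF stood at 1.38, 1.18 and 1.67 TPM in Control, 2.95 in A2ko, 16.4 in A8ko, and 11.3 and 12.2 in the C9ko pair. IL1A, which encodes interleukin-1 alpha, stood at 34.9, 31.4 and 36.7 TPM in Control, 4.30 in A2ko, 135 in A8ko, and 53.9 and 60.0 in the C9ko pair. IL1A was thus lowest in A2ko and highest in A8ko, the order seen for CCL20. IL1B stood at 107, 101 and 94.3 TPM in Control, 178 in A2ko, 293 in A8ko, and 176 and 195 in the C9ko pair, above Control in A2ko where IL1A was far below. IL17C, an epithelial member of the IL-17 family, was under 0.4 TPM in Control and stood at 1.98 TPM in A2ko, 2.03 in A8ko, and 4.07 and 3.56 in the C9ko pair. It passed the filter on low values only through knockout libraries, so a fall could not have been found and its counts and calls carry no weight. Its difference over all knockouts was 1.505 log2 units. That call was lost in 7 of 14 alternative settings, each omission of a Control library among them.

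**Figure D5:**
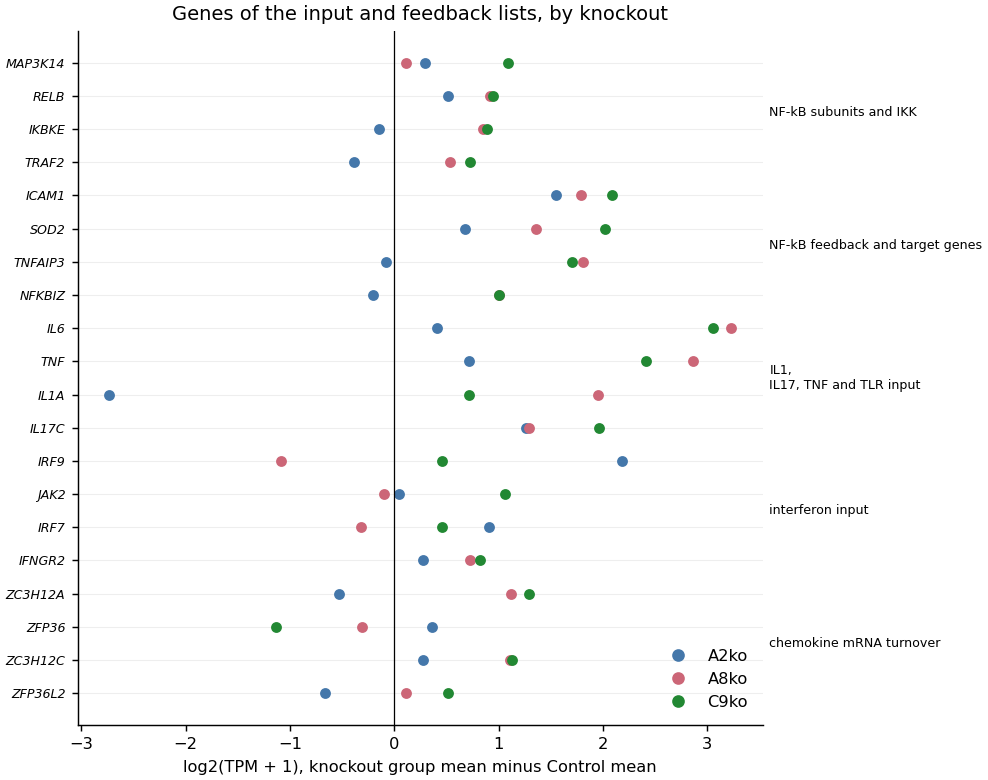
Differences from Control (x axis, log2(TPM + 1), group means) of the named genes of 5 lists, by knockout; each point is 1 knockout group (1 distinct library for A2ko and A8ko, 2 for C9ko). A8ko and C9ko lie close together for most NF-kB target and input genes, while IL1A at -2.74 in A2ko and IRF9 at 2.18 in A2ko stand apart.

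Genes of the interferon route, known to induce CXCL10 and CXCL11, had several orders. Of 23 genes 16 were tested, with 9 called higher in C9ko and 1 lower (IFNLR1), and list medians of 0.32, 0.01 and 0.43 log2 units in A2ko, A8ko and C9ko. The C9ko shares over all tested genes were 22.0% higher and 7.42% lower. IRF9, the DNA-binding subunit of the interferon-activated complex ISGF3, stood at 6.25, 13.4 and 10.6 TPM in Control, 47.4 in A2ko, 4.003 in A8ko, and 13.4 and 13.8 in the C9ko pair. IRF9 was highest in A2ko and lowest in A8ko. IRF1, also on this list, stood at 125.9, 122.7 and 132.1 TPM in Control and 75.7 in A2ko. It stood at 89.3 TPM in A8ko, and 125 and 132 in the C9ko pair, and was not called there. The part of either gene in the CXCL10 and CXCL11 levels was not tested. JAK2 (1.06 log2 units) and IFNGR2 (0.82) rose in C9ko, and IRF7 differed by 0.46, a call lost in 9 of 15 settings. IFNB1 was under 1 TPM in every library. IFNE, another interferon gene on this list, stood at 5.62, 4.68 and 5.21 TPM in Control and 6.88 in A2ko. It stood at 3.90 TPM in A8ko, and 4.85 and 3.95 in the C9ko pair, and was not called there.

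The mRNAs of several chemokines carry AU-rich elements, through which ZFP36 family proteins are known to hasten decay. Counting the word ATTTA in the 3′ UTR of 1 GENCODE transcript a gene gave 10 in CXCL2, 9 in CXCL8, 7 in CXCL3, 5 in CXCL1, 3 in CCL20, and 1 each in CXCL10, CXCL11 and CXCL16. CXCL5 and CXCL6 held 11 and 6. In all, 6 of the 10 members held 5 or more, against 27.5% of 18510 genes, whose median was 2. The CXCR3 ligands and CXCL16 lie below that median, and the ELR ligands and CCL20 above it. The part of these words in the chemokine levels was not tested. Of 9 mRNA turnover genes, 4 rose in C9ko (ZC3H12A, ZC3H12C, ZFP36L2 and ARID5A) and 1 fell (ZFP36), against 22.0% and 7.42% of all tested genes. ZFP36 stood at 137.5, 137 and 138 TPM in Control, 177 in A2ko, 110.3 in A8ko, and 60.7 and 63.8 in the C9ko pair, highest in A2ko and lowest in C9ko. Its C9ko fall was 1.13 log2 units (SE 0.06, limma adjusted p = 3.92e-05). ZC3H12A stood at 54.9, 49.4 and 54.7 TPM in Control, 36.3 in A2ko, 116 in A8ko, and 127 and 135 in the C9ko pair, an order like that of CXCL10.

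Of 9 proteases known to shed or trim chemokines, 6 were tested and 4 rose in C9ko, against 22.0% of all tested genes. They were ADAM10 (0.36 log2 units) and ADAM17 (0.50), which can release CXCL16 from the membrane, and the cathepsins CTSS (1.44) and CTSB (0.50). The ADAM10 call was lost without C9ko 2 (adjusted p 0.0515), and that of CTSB in 3 of 15 settings, among them without C9ko 1 (highest adjusted p 0.132). ADAM17 was above Control in every knockout library, as were 17.0% of all tested genes.

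Other chemokine genes had other orders across the knockouts. Of 11 other CXC, XC and CX3C ligands 5 were tested, with CXCL14 and CX3CL1 called higher and CXCL17 lower in C9ko, and of 18 other CC ligands 4 were tested, with CCL2 and CCL28 called higher and CCL22 lower. All tested genes gave 22.0% higher and 7.42% lower. CCL2, a monocyte attractant, was the most abundant chemokine in Control and in C9ko. It stood at 129, 136 and 118 TPM in Control, 298 in A2ko, 37.4 in A8ko, and 1432 and 1466 in the C9ko pair, so that it was below Control in A8ko where CXCL1, CXCL8 and CCL20 were far above. The C9ko difference was 3.50 log2 units (SE 0.08, limma adjusted p = 5.08e-06). CXCL14, a ligand of epithelia, stood at 1.33, 1.31 and 1.19 TPM in Control, 4.42 in A2ko, 2.17 in A8ko, and 14.4 and 16.2 in the C9ko pair. The calls of CXCL17, CCL22 and CCL28 were lost in 5 of 14, 4 of 14 and 8 of 15 alternative settings, the omission of C9ko 2 among them (highest adjusted p 0.0959, 0.0875 and 0.169). CXCL17 stood at 0.836, 1.29 and 1.38 TPM in Control and at most 0.270 in any knockout library. It passed the filter on low values only through Control libraries, where it was high, so its count and call carry no weight.

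Of the signalling receptors for the members, none exceeded 1.08 TPM in any library. CCR6 was listed at 0 in every library, CXCR1 and CXCR3 were under 0.05 TPM and CXCR6 under 0.3 TPM. CXCR2 stood at 0.739, 1.08 and 1.03 TPM in Control, 0.774 in A2ko, 0.182 in A8ko, and 0.380 and 0.994 in the C9ko pair. Of 22 receptor genes 3 were tested: CCR3 rose in C9ko (0.86 log2 units, SE 0.13, limma adjusted p = 0.00363) and CXCR2 did not pass. ACKR3, an atypical receptor that takes up CXCL11 and CXCL12 without G protein signalling, fell by 1.73 log2 units in C9ko (SE 0.07, limma adjusted p = 2.17e-05). It stood at 90.6, 80.5 and 87.5 TPM in Control, 31.2 in A2ko, 29.1 in A8ko, and 25.8 and 24.8 in the C9ko pair. It was lower in every knockout, including A2ko where CXCL11 was lower as well. Over all knockouts ACKR3 fell by 1.57 log2 units (limma adjusted p = 0.00359), which did not pass without Control 2 or without Control 3 (adjusted p up to 0.0613).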

How the data were processed

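PolyA RNA of CAL27 cells was sequenced from strand-specific dUTP libraries, per the labels' protocols. The authors deposited 1 table per sample with TPM per Ensembl gene identifier, on build hg38 per the submitters' processing notes. The aligner, quantifier and annotation are not given in the sources used here. TPM keeps no depth, so no counting interval is given. Each pair of identical files was counted as 1 library, which left 7 from 9 files. Nothing says that replicates were separate cultures, so p-values measure only the spread between these libraries.

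Symbols were found for 61463 of 78894 identifiers, and positions came from GENCODE release 29 (57342 found). Genes with at least 1 TPM in 2 distinct libraries (17100) were analysed as log2(TPM + 1) with limma 3.58.1 in R 4.3.3: 1 mean per group, a contrast of C9ko against Control, eBayes with trend, two-sided, Benjamini-Hochberg over all tested genes, called at an adjusted p under 0.05. All knockouts were compared as 3 group means against the Control libraries. For A2ko and A8ko, genes outside the Control range and 1 log2 unit or more from the mean of Control were counted. Scripts were tested on simulated data.

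The members and the gene lists were chosen with earlier results of these data known. All members are named, and from each other list up to 4 tested genes with the largest difference in any knockout, among those called in C9ko or counted in A2ko or A8ko, plus genes that a count of 5 or fewer singles out. Neighbours lay within 500 kb. RELA, NFKB2, TAB3, TRAF3, IL1B, IL17A, IL36B, IRAK2, IRF1, IFNB1, IFNE, CXCL9 and the members' receptors were named after their values were seen. Promoters came from RefSeq and were searched on both strands, and transcripts were aligned with Biopython 1.88. Alternatives covered the pseudocount (0.1), the filter, the scaling, mitochondrial genes, summed paralogs, identical files, the moderation, the samples in the fit, a replicate block and each library left out.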

Additional observations from a re-analysis of the deposited data

Results flagged for a closer look

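The genes below had at least 1 knockout whose libraries all lay above every Control library and another whose libraries all lay below. The value is the highest minus the lowest knockout difference from Control in log2 units. None of these differences between knockouts was tested, and A2ko and A8ko rest on 1 distinct library each. The share of all tested genes that met this rule was not counted, so the flag alone sets none of these genes apart. Some margins were narrow. JAK2 stood at 2.10 TPM in A2ko against 2.09 in the highest Control library, and at 1.80 in A8ko against 1.90 in the lowest.

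Among the chemokines, CXCL10 (1.98), CXCL11 (3.85) and CCL20 (2.43) were below Control in A2ko and above it in A8ko and C9ko. Of the other ligands, CX3CL1 (0.77) was lower in A2ko and higher in C9ko, and CCL2 (5.24) lay below Control in A8ko and above it in the other knockouts.

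Of the genes of the NF-kB and cytokine routes, IKBKE (1.04), TRAF2 (1.11), TNFAIP3 (1.89), NFKBIZ (1.21) and IL1A (4.69) were below Control in A2ko and above it in A8ko and C9ko. The mRNA turnover genes ZC3H12A (1.82) and ZFP36L2 (1.17) were placed likewise, whereas ZFP36 (1.49) was above Control in A2ko and below in A8ko and C9ko. Of the interferon route, IRF9 (3.28), JAK2 (1.16) and IRF7 (1.22) were below Control in A8ko and above it in at least 1 other knockout. The proteases CTSS (1.61), CTSB (1.22) and ADAM10 (0.64) split as well, CTSS with A2ko low and ADAM10 with A8ko low.

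Among the neighbours, NAAA (0.76) and SHROOM3 (0.78), near CXCL10, were below Control in A2ko and above it in C9ko. SLC52A1 (2.03) and ALOX15 (1.39), near CXCL16, were above Control in A2ko and below it in A8ko and C9ko.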

How the results depend on the processing

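The 6 calls in C9ko (CXCL1, CXCL8, CXCL10, CXCL11, CXCL16 and CCL20) kept their direction and their side of the threshold in all 15 alternative settings each, with the highest adjusted p at 0.0397, for CXCL16. The count of members called ranged from 6 to 7, also without any 1 library. The replicate block gave 6. Replicate numbers did not pair the libraries (correlation of deviations between -0.05 and 0.05).

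In A2ko the count was 1, but 2 with median-of-ratios scaling (CXCL11 and CCL20) and 3 at a minimum of 0.5 log2 units (CXCL10 added). That scaling also turned the small A2ko differences of CXCL1 and CXCL2 to -0.09 and -0.11. In A8ko the count was 5 to 6. Over all knockouts the count of 0 became 5 without the A2ko group and 7 with the knockouts averaged in the fit of all 4 groups. Without A2ko the difference of IL1A over all knockouts turned from -0.02 to 1.33. The cause of these changes was not tested.

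Over all genes, C9ko calls numbered 5038, but 8166 with every file as a library, 3246 with the replicate block and 3301 without C9ko 2. The 176 calls over all knockouts became 23 without a filter, 5 to 11 without 1 Control library, 1993 without A2ko, 67 without C9ko and 4361 with the averaged fit. The 867 genes counted in A2ko and 809 in A8ko became 1813 and 1689 with a pseudocount of 0.1, 380 and 412 at a mean of 5 TPM, and 3903 and 3226 at 0.5 log2 units. Higher genes made up 74.8% of C9ko calls, but 56.1% with median-of-ratios scaling and 60.4% without mitochondrial genes. Over all knockouts they made up 49.4%, or 27.8% with that scaling, and in A2ko 69.9% or 54.5%. Unknown depth limits what can be said of CXCL5, CXCL6 and the receptors.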
